A study of Rattus norvegicus with 14 samples.

Results

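Aox3, Stac3, Inmt, Dhrs7l1, Lyc2, Ust5r, Avpr1a and Hao2 are 8 of the 14497 rat genes measured. They were selected on their log2 array intensity, with results of these data known, because it was low in chemically induced liver foci and in regenerating liver and high in normal liver. Each is represented by the 1 probe set whose only symbol is that gene, and the rule used its values in all 4 groups of animals. Their differences from normal liver are therefore given as descriptions, with no test. The comparisons among the groups other than normal liver are tested, but they use the same animals as the choice of the genes, so their p-values are not independent of it.

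Transcripts were measured on Affymetrix Rat Gene ST 1.0 arrays in 12 male F344 rats, an inbred laboratory strain, in 4 groups of 3 animals, and the labels give no age. The foci were induced by the Solt-Farber protocol of liver carcinogenesis, in which the carcinogen diethylnitrosamine was injected at 200 mg/kg on day 1, a 2.5 mg pellet releasing 2-acetylaminofluorene (AAF) over 14 days was implanted on day 14, and part of the liver was removed on day 21. Rapamycin foci came from rats given at that operation a pellet releasing rapamycin, an inhibitor of the growth kinase mTOR, at 2.5 mg/kg per day for 21 days. Placebo foci came from rats given a placebo pellet of the same release time instead. Both kinds of foci were captured by laser on day 70 as persistent lesions that stained for the placental glutathione S-transferase (GSTP). AAF/PH liver came from rats with the AAF pellet on day 1, partial hepatectomy on day 7 and death on day 14, and its captured regions are labelled as oval cells, progenitor cells that proliferate under this regimen, so these regions differ from the other groups in their cells as well as in treatment. Thus AAF and partial hepatectomy were shared by the foci and the AAF/PH groups, and diethylnitrosamine was given only to the rats with foci. Normal liver came from unmanipulated adults. All tissue had been fixed in formalin and embedded in paraffin, and the captured regions are small bulk samples, in which fewer cells of a type and less RNA per cell cannot be told apart.

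Liver cells clear foreign and internal small molecules with families of oxidases, reductases, methyltransferases and membrane transporters, many of which are made at high levels only by mature hepatocytes. Aox3 and Hao2 are oxidases, Inmt is a methyltransferase, Dhrs7l1 belongs by name to the short-chain dehydrogenases, Ust5r to the organic anion transporters, and Avpr1a is the vasopressin receptor of hepatocytes. Stac3 and Lyc2 carry names from muscle and from antibacterial defence.

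The first 250 bases before the transcription start are shown for Aox3 and Stac3, the genes of the largest differences between placebo foci and normal liver, and for Inmt and Hao2, whose windows hold the elements described next. The sequences are RefSeq's for the rat build GRCr8, 5′ to 3′ on the strand of the gene. Capitals mark the letters TGATAA (the GATA motif), CANCTG (only some forms of the E box) and AGGTCA (a nuclear receptor core), on either strand. Marked likewise are TATAAA (the letters of the TATA box, at any position) and GTTAAC (the HNF1 core).
Aox3, chr9:67158750-67158999, plus strand: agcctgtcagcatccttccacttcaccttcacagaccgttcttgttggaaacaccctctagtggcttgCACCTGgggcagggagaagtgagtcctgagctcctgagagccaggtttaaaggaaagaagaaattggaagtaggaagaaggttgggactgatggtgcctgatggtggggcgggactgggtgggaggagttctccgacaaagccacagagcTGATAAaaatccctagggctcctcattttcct
Stac3, chr7:65228225-65228474, plus strand: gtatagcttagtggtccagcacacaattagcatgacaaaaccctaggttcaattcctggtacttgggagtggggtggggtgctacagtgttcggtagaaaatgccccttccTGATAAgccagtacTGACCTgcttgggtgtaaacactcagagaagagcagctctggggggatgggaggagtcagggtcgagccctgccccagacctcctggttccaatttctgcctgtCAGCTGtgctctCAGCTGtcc
Inmt, chr4:85652756-85653005, minus strand: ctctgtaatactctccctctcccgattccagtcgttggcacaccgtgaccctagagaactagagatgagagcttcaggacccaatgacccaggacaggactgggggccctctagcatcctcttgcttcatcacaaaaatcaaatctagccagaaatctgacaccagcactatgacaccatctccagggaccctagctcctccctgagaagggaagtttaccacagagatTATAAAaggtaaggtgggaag
Hao2, chr2:188913134-188913383, minus strand: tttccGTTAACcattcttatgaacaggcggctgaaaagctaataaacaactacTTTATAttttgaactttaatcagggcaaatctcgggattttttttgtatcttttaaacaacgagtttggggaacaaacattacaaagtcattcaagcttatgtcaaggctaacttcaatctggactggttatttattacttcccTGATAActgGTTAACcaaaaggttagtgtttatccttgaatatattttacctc

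The motifs were chosen after the sequences had been seen, and a match describes letters only. Aox3 held TGATAA from base -32 to -27, counted from the transcription start, and Stac3 from -139 to -134. The letters GTTAAC, a palindrome, stood at 2 places in Hao2, from -245 to -240 and from -44 to -39. TATAAA stood close to the start only in Inmt, from -21 to -16. It lay from -197 to -192 in Hao2, -183 to -178 in Ust5r and -212 to -207 in Avpr1a. In Hao2 and Ust5r it was on the opposite strand. Among the promoters of all 8 genes, TATAAA occurred in 4, against 13.1% of 27457 rat promoters of the same length, TGATAA in 3 against 7.9%, and GTTAAC in 1 against 2.3%. CANCTG was present in 3, against 42.9% of all promoters, and AGGTCA in 1, against 13.7%. Neither TTCNNNGAA, the STAT element, nor CAAAGTCCA, an HNF4 element, was among the letters of the 8 windows, with 7.5% and 0.3% of all promoters holding them. No motif overlapped another in these windows, and no motif was present in all 8. The windows of Dhrs7l1 and Lyc2, not shown, held none of the motifs searched.

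The 8 genes stood lower in all 9 animals with foci or AAF/PH treatment than in any normal liver. Their median log2 difference from normal liver was -3.11 in rapamycin foci (range -4.08 to -2.54), -3.80 in placebo foci (-4.70 to -2.85) and -3.92 in AAF/PH liver (-5.18 to -3.09), beside medians of 0.07, 0.04 and 0.12 over all genes. In each comparison the animals of the groups did not overlap for 8 of 8 genes, beside 14.6%, 15.7% and 22.2% of all genes that were lower without overlap (27.4% were higher without overlap in AAF/PH liver). Of all genes, limma called 6.53%, 8.22% and 20.0% in either direction in these comparisons, and 3.59% lower in all 3. Since the rule used these contrasts, nothing is read from those counts. Under a cut of -2.5 in all 3 comparisons, 11 of 14497 genes (0.0759%) qualified, the 8 and 3 cytochrome P450 genes, Cyp2c11, Cyp3a9 and Cyp4a8. By the smallest of the 3 differences, Hao2 at -2.54, Cyp4a8 at -2.56 and Avpr1a at -2.58 lay just inside, and Slc27a5 at -2.48, Car3 at -2.47 and Hacl1 at -2.41 just outside. The group means were lowest in AAF/PH liver for 7 of the 8 genes, followed by placebo foci, rapamycin foci and normal liver. Avpr1a was the exception, with placebo foci as the lowest group.

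**Figure D1:**
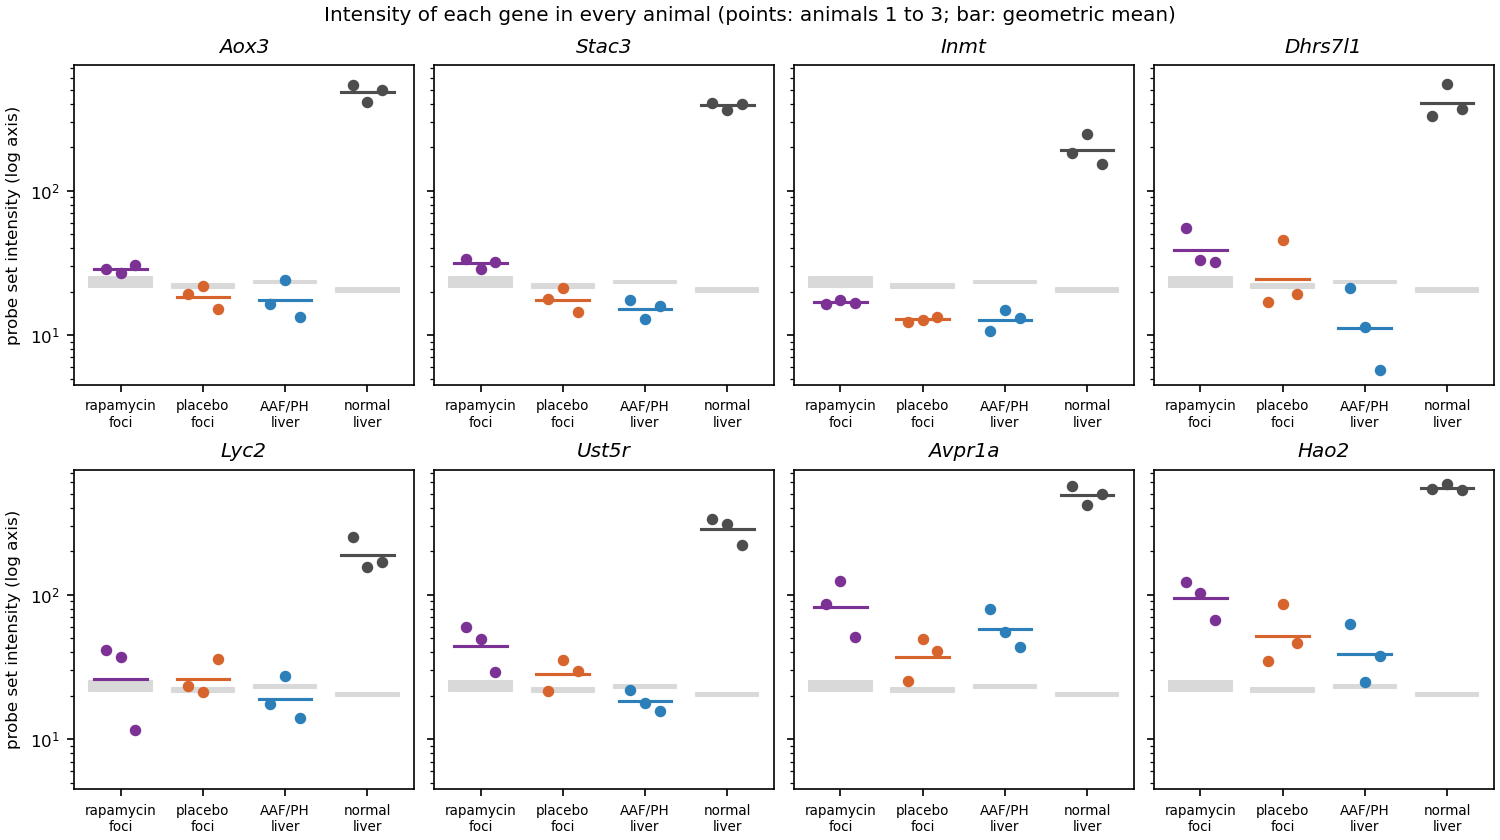
Intensity of each of the 8 genes (log axis) in 3 animals of each group; coloured bars are geometric means and grey bands the range of the arrays' median intensity. All 9 animals with foci or AAF/PH treatment lie below the 3 normal livers for every gene, and many lie within or below the grey band.

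Aox3 (probe set 10923432) encodes an aldehyde oxidase, a molybdenum and flavin enzyme that oxidises aldehydes and nitrogen heterocycles. Its intensity in animals 1 to 3 was 28.4, 26.7 and 30.3 in rapamycin foci, 19.1, 21.9 and 15.0 in placebo foci, and 16.4, 23.9 and 13.4 in AAF/PH liver. In normal liver it was 539, 413 and 497. Every animal with rapamycin foci was above every animal with placebo foci and every AAF/PH animal, while placebo foci and AAF/PH liver overlapped. All placebo foci and AAF/PH animals 1 and 3 stood below their own array's median intensity. The size of the difference from normal liver in these groups is therefore limited by the array's floor. The log2 difference from normal liver was -4.08 ± 0.22 in rapamycin foci, -4.70 ± 0.22 in placebo foci and -4.79 ± 0.22 in AAF/PH liver, 27.6-fold lower (standard error, n = 3 animals per group). Rapamycin foci exceeded placebo foci by 0.62 ± 0.22, a difference that did not pass (limma adjusted p = 0.985, 95% interval 0.16 to 1.09 before adjustment).

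Hao2 (probe set 10825362) encodes a peroxisomal oxidase of 2-hydroxy acids. Rapamycin foci had 122, 104 and 66.6, placebo foci 34.6, 86.4 and 46.4, AAF/PH liver 63.3, 24.7 and 37.8, and normal liver 541, 584 and 528. The foci overlapped each other, and the rapamycin foci lay above all 3 AAF/PH livers. From normal liver it differed by -2.54 ± 0.35 in rapamycin foci, -3.41 ± 0.35 in placebo foci and -3.82 ± 0.35 in AAF/PH liver, so that rapamycin foci were 5.83-fold and AAF/PH liver 14.1-fold lower. Rapamycin foci were above AAF/PH liver by 1.28 ± 0.35 (limma adjusted p = 0.0602), just short of the threshold. That difference passed without AAF/PH animal 1 (1.63, adjusted p = 0.0219), without placebo animal 2 (1.28, adjusted p = 0.0362) or without rapamycin animal 3 (1.53, adjusted p = 0.0036).

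Inmt (probe set 10862694) encodes a methyltransferase that moves methyl groups from S-adenosylmethionine to tryptamine and related amines. Its values were 16.4, 17.4 and 16.6 in rapamycin foci, 12.4, 12.8 and 13.4 in placebo foci, 10.7, 15.0 and 13.1 in AAF/PH liver, and 182, 246 and 152 in normal liver. All 9 low animals stood below their own array's median intensity, so the size of the difference is limited by the array's floor. The log2 difference from normal liver was -3.50 ± 0.19 in rapamycin foci, -3.88 ± 0.19 in placebo foci and -3.89 ± 0.19 in AAF/PH liver. Rapamycin foci did not overlap placebo foci, but the gap was 0.39 ± 0.19 (limma adjusted p = 0.985) and the arrays of rapamycin animal 3 alone ran from 12.1 to 22.9.

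Dhrs7l1 (probe set 10890547), named as a relative of the short-chain dehydrogenase Dhrs7, had 55.4, 32.9 and 31.9 in rapamycin foci, 16.8, 45.3 and 19.1 in placebo foci, 21.0, 11.4 and 5.71 in AAF/PH liver, and 329, 542 and 366 in normal liver. Placebo animal 2 lay within the range of the rapamycin foci, and AAF/PH animal 3 was far under the other animals of its group. Its difference from normal liver in AAF/PH liver, -5.18 ± 0.44, was the largest of the 24 differences from normal liver, beside -3.38 ± 0.44 in rapamycin foci and -4.04 ± 0.44 in placebo foci. That largest difference includes AAF/PH animal 3 at 5.71, and every AAF/PH value lay below its own array's median. Its size is therefore limited by the array's floor, and nothing is read from its rank. Rapamycin foci were 3.49-fold above AAF/PH liver (log2 difference 1.80 ± 0.44, limma adjusted p = 0.0302). The call was lost without AAF/PH animal 3 (1.32, adjusted p = 0.163), without AAF/PH animal 2 (1.82, adjusted p = 0.0943) or without rapamycin animal 1 (1.54, adjusted p = 0.146). With values under the array's median raised to it, the difference was 0.74 (adjusted p = 0.372).

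Ust5r (probe set 10728478) encodes a rat membrane protein related to the SLC22 family of organic anion transporters. Rapamycin foci had 59.6, 49.2 and 29.3, placebo foci 21.6, 35.3 and 29.9, AAF/PH liver 22.0, 17.8 and 15.8, and normal liver 332, 310.5 and 222. Rapamycin animal 3 fell within the range of the placebo foci, and all rapamycin foci were above all AAF/PH livers. From normal liver the gene differed by -2.68 ± 0.27 in rapamycin foci, -3.32 ± 0.27 in placebo foci and -3.95 ± 0.27 in AAF/PH liver. Every AAF/PH value lay below its own array's median, so the last difference is limited by the array's floor. Rapamycin foci were 2.41-fold above AAF/PH liver (log2 difference 1.27 ± 0.27, limma adjusted p = 0.0143). Without rapamycin animal 1 the difference was 1.05 (adjusted p = 0.0825), without rapamycin animal 2 1.19 (0.0509), without AAF/PH animal 2 1.25 (0.0584) and without AAF/PH animal 3 1.16 (0.0837). After values were raised to the array's median, it was 0.93 (adjusted p = 0.112).

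Avpr1a (probe set 10895747) encodes the V1a vasopressin receptor, which in hepatocytes couples through Gq to calcium release and glycogen breakdown. It had 86.9, 124 and 51.0 in rapamycin foci, 25.3, 49.5 and 40.6 in placebo foci, 79.2, 55.1 and 43.8 in AAF/PH liver, and 567, 418 and 496 in normal liver. The 3 animals with rapamycin foci lay above the 3 with placebo foci, though animal 3 of the rapamycin group, at 51.0, was only just above placebo animal 2, at 49.5. Its difference from normal liver was -2.58 ± 0.32 in rapamycin foci, -3.73 ± 0.32 in placebo foci and -3.09 ± 0.32 in AAF/PH liver. Rapamycin foci were 2.21-fold above placebo foci (log2 difference 1.15 ± 0.32), the largest such difference among the 8, and it did not pass (limma adjusted p = 0.985, 95% interval 0.46 to 1.83 before adjustment). Placebo foci stood 0.64 ± 0.32 log2 units below AAF/PH liver (limma adjusted p = 0.374), the opposite side from the other 7 genes.

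Stac3 (probe set 10895915) encodes an adaptor protein known from skeletal muscle, where it links the calcium channel of the cell surface to contraction. Its values were 33.4, 28.8 and 31.9 in rapamycin foci, 17.9, 21.0 and 14.4 in placebo foci, 17.4, 12.9 and 15.9 in AAF/PH liver, and 403, 363 and 400.1 in normal liver. Every animal with rapamycin foci was above every animal with placebo foci and every AAF/PH animal. The difference from normal liver was -3.63 ± 0.18 in rapamycin foci, -4.47 ± 0.18 in placebo foci (22.1-fold lower) and -4.67 ± 0.18 in AAF/PH liver (25.4-fold lower). Rapamycin foci were 2.05-fold above AAF/PH liver (log2 difference 1.04 ± 0.18, limma adjusted p = 0.00394), a call kept when any 1 animal was left out. All 3 placebo values and all 3 AAF/PH values lay below their arrays' medians, so their folds from normal liver are limited by the array's floor. With values raised to the array's median, the difference of Stac3 between rapamycin foci and AAF/PH liver was 0.43 (adjusted p = 0.0102). Against placebo foci, rapamycin foci stood 0.83 ± 0.18 higher (limma adjusted p = 0.985).

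Lyc2 (probe set 10895585) encodes a lysozyme C, of the family of enzymes that cleave bacterial cell wall. Rapamycin foci had 41.5, 37.2 and 11.6, placebo foci 23.2, 21.1 and 35.7, AAF/PH liver 17.4, 27.5 and 14.0, and normal liver 252, 155 and 167. The 3 low groups overlapped, and rapamycin animal 3 was the lowest of the 12 animals, at 10.9, 11.2 and 12.9 on its 3 arrays. From normal liver the gene differed by -2.84 ± 0.41 in rapamycin foci, -2.85 ± 0.41 in placebo foci and -3.31 ± 0.41 in AAF/PH liver. Rapamycin and placebo foci differed by 0.01 ± 0.41 (limma adjusted p = 0.999), with a 95% interval of -0.86 to 0.89 before adjustment. Without rapamycin animal 3 the difference of Lyc2 was 0.60 (adjusted p = 0.827).

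Whether the rapamycin pellet left a mark on these genes at day 70 is addressed by rapamycin against placebo foci. All 8 genes were on the higher side in rapamycin foci, with a median log2 difference of 0.65 beside 0.01 over all genes. Of the 8, 4 (Aox3, Stac3, Inmt and Avpr1a) did not overlap, beside 3.62% of all genes that were higher without overlap. The genes of most similar profile, picked over the same animals and named below, were also on the higher side, from 0.18 (Nox4) to 0.90 (Slc27a5). The shift is thus not particular to the 8. None of the 8 passed, and limma called 0 of 14497 genes (0%), with 483 genes and 5 of the 8 at an unadjusted p under 0.05. The smallest adjusted p of any gene was 0.512. The arrays of rapamycin animal 3 had the narrowest signal, with an interquartile range of 1.57 to 1.71 on the log2 scale against 1.98 to 2.80 on the other 11 arrays, and a median intensity of 24.9 to 25.4 against 19.8 to 23.7. The part of that signal range in the differences was not tested. Without that animal the differences ran from 0.39 for Inmt to 1.49 for Avpr1a, and 0 of the 8 passed.

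Between placebo foci and AAF/PH liver, 0 of the 8 passed, beside 4.19% of all genes called by limma (2.62% higher), and 2 of the 8 had an unadjusted p under 0.05. Placebo foci were on the higher side for 7 genes, from 0.01 for Inmt to 1.14 for Dhrs7l1, with a median of 0.31 over the 8 and -0.05 over all genes. None of the 8 separated these groups without overlap, beside 13.0% of all genes that were higher and 12.8% that were lower. Rapamycin foci against AAF/PH liver gave 3 calls, Stac3, Ust5r and Dhrs7l1, all higher, beside 4.01% of all genes called in either direction 2.14% called higher and 1.87% called lower. The median was 0.87 over the 8 and -0.01 over all genes, and 6 of the 8 were higher without overlap, beside 5.44% of all genes higher and 8.12% lower without overlap. Avpr1a (0.51 ± 0.32) and Lyc2 (0.47 ± 0.41) overlapped, and without rapamycin animal 3 both passed, Avpr1a at 0.85 (adjusted p = 0.0448) and Lyc2 at 1.06 (adjusted p = 0.013). Aox3 passed without AAF/PH animal 2 (0.94, adjusted p = 0.0329). The count of calls was 1 without AAF/PH animal 3, 1 without rapamycin animal 1 and 6 without rapamycin animal 3.

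**Figure D2:**
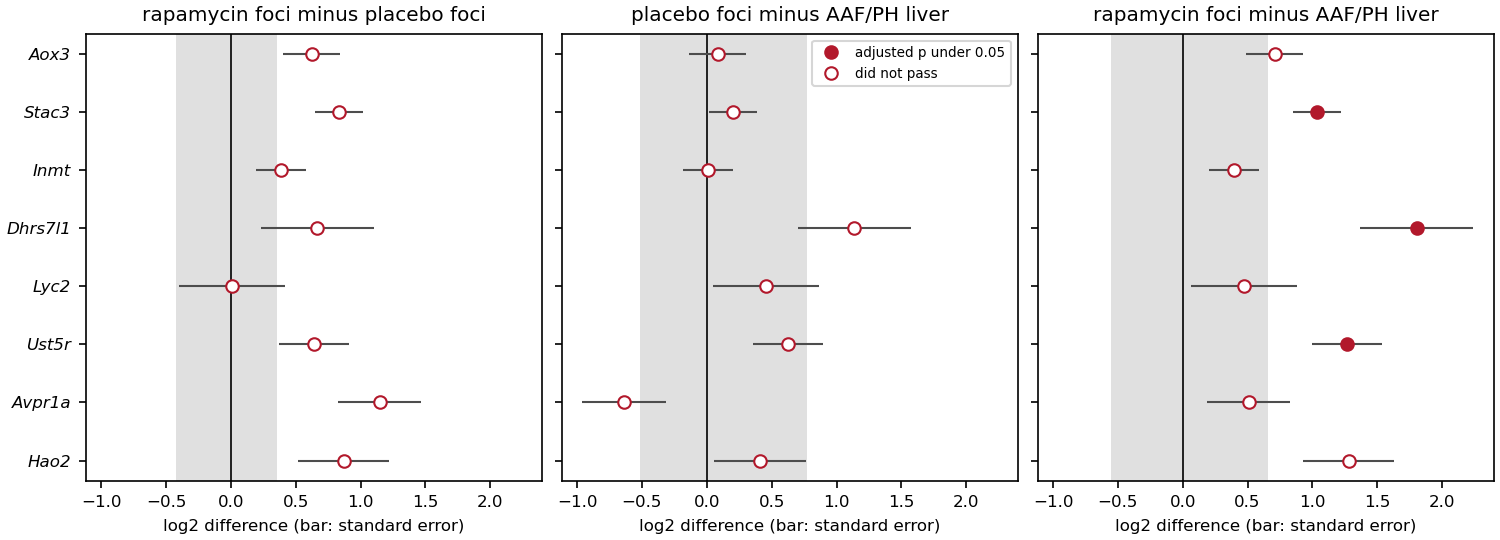
Log2 differences of the 8 genes in the comparisons without normal liver, with standard errors; filled points passed at an adjusted p under 0.05 and the grey band holds the middle 90% of all genes. Stac3, Dhrs7l1 and Ust5r passed between rapamycin foci and AAF/PH liver, and none passed in the other comparisons.

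Family members beside the 8 genes did not all stand with them. Aox1, the aldehyde oxidase gene next to Aox3 on chromosome 9, had 974, 1202 and 325 in rapamycin foci, 1043, 929 and 1283 in placebo foci, 112, 105 and 89.6 in AAF/PH liver, and 379, 332 and 347 in normal liver. It rose in placebo foci against normal liver by 1.61 ± 0.35 (limma adjusted p = 0.00963) and fell by 1.79 in AAF/PH liver (standard error 0.35, adjusted p = 0.00245). In rapamycin foci its difference from normal liver was 1.04 ± 0.35 (adjusted p = 0.0899), and 1.62 ± 0.19 without rapamycin animal 3 (adjusted p = 1.86e-05). Placebo foci were 3.40 ± 0.35 above AAF/PH liver for Aox1 (adjusted p = 4.82e-05), where Aox3 showed 0.09 ± 0.22. Aox4 and Aox2, the other genes of the cluster, had differences between -0.16 and 0.36 from normal liver and none was called. In normal liver Aox4 had 10.7 to 12.5 and Aox2 11.5 to 14.4, below those arrays' medians of 19.8 to 21.0. A fall could therefore hardly show in either gene.

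Hao1, the liver glycolate oxidase related to Hao2, fell in every comparison with normal liver, with -1.41 ± 0.24 in rapamycin foci, -1.51 ± 0.24 in placebo foci and -1.48 ± 0.24 in AAF/PH liver (limma adjusted p = 0.00419, 0.00118 and 0.000625). Slc22a8, an organic anion transporter gene near Ust5r, fell as well, with -1.55 ± 0.28, -2.06 ± 0.28 and -3.11 ± 0.28 in the same order of groups. Its intensity was 143, 138 and 107 in rapamycin foci, 81.3, 123 and 72.6 in placebo foci, 47.3, 63.7 and 27.2 in AAF/PH liver, and 329, 391 and 408 in normal liver. Lyz2, the lysozyme gene of macrophages next to Lyc2, was called in no comparison with normal liver, with -0.64 ± 0.45, -0.05 ± 0.45 and 1.34 ± 0.45 (limma adjusted p = 0.349, 0.968 and 0.0504). Its difference in AAF/PH liver passed without AAF/PH animal 1 (1.75, adjusted p = 0.0239), without rapamycin animal 3 (1.34, adjusted p = 0.0114) or 2 (0.0477), and without placebo animal 1 (0.0403) or 3 (0.0197). RefSeq lists Lyz2 as a synonym of Lyc2, while the annotation of the array holds them as separate genes, so signal from shared probes cannot be told apart here. Avpr1b, Avpr2 and Oxtr, the other receptors for vasopressin and oxytocin, differed from normal liver by 0.04 to 0.71, and Stac2 by 0.41 to 0.68, with no call. In normal liver these receptors had 12.9 to 21.9 and Stac2 18.1 to 23.8, near or below the array medians of 19.8 to 21.0. A fall could hardly show in these genes.

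**Figure D3:**
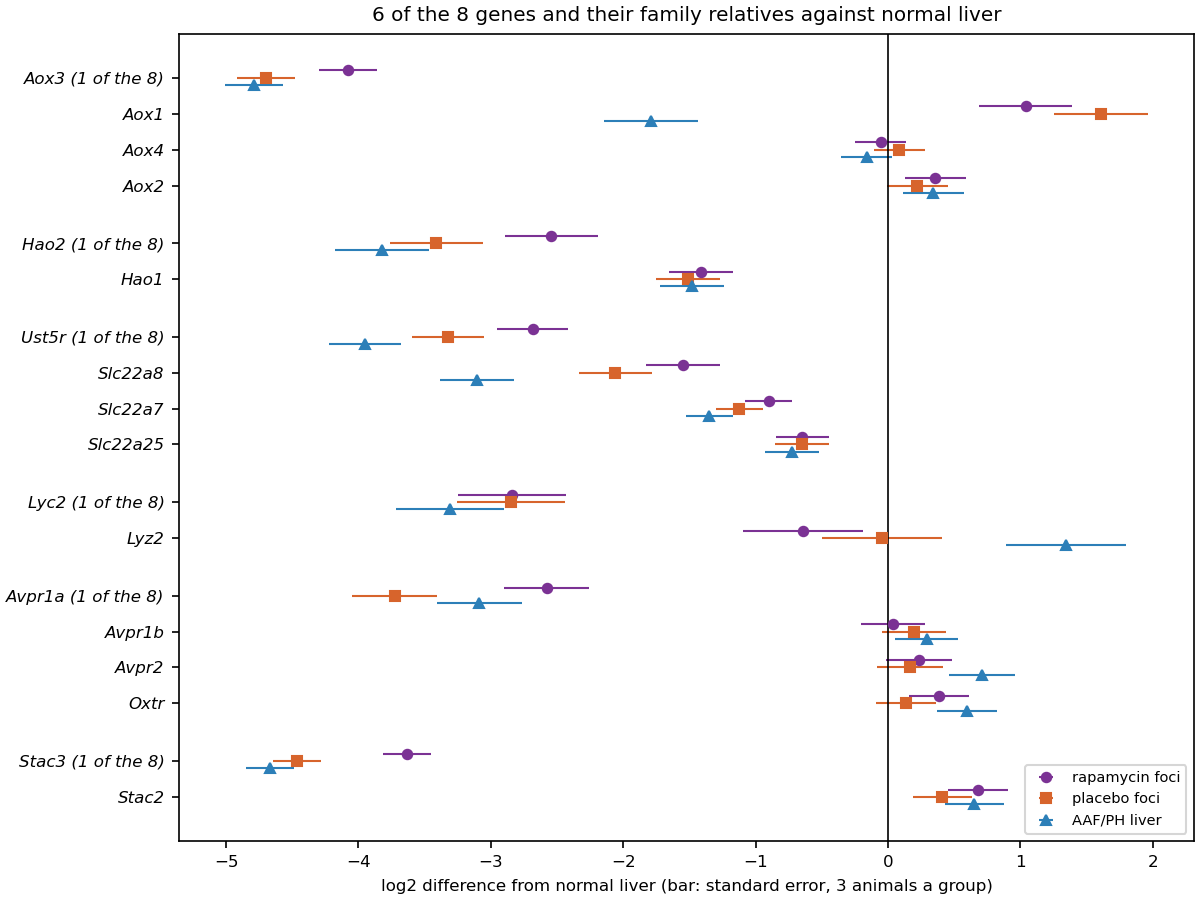
Log2 difference from normal liver (bar: standard error, 3 animals per group) for 6 of the 8 genes and their relatives. Aox1 stands above 0 in both kinds of foci and below 0 in AAF/PH liver, whereas Aox3 stands below -4 in each. In normal liver Aox4, Aox2, Slc22a25, Avpr1b, Avpr2, Oxtr and Stac2 lay near or below the array medians.

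Wider lists of relatives and partners, from which the 8 genes were left out, were counted in the same fit. Of 17 measured peroxisomal oxidase and glyoxylate genes, 9 fell in rapamycin foci, 11 in placebo foci and 14 in AAF/PH liver, and 0 rose, with list medians of -1.01, -1.22 and -1.73 beside 0.07, 0.04 and 0.12 over all genes. Calls among all genes were 4.93%, 5.38% and 12.5% lower and 1.60%, 2.84% and 7.54% higher in the same comparisons. Agxt, which removes glyoxylate, differed by -1.32 ± 0.24, -2.23 ± 0.24 and -1.73 ± 0.24, and Hacl1, which cleaves 2-hydroxy fatty acids, by -2.46 ± 0.35, -2.41 ± 0.35 and -3.60 ± 0.35. Of 9 small-molecule methyltransferases, 5, 4 and 6 fell and 0 rose (medians -1.04, -0.95 and -1.21). Gnmt, the glycine methyltransferase, fell with -1.83 ± 0.23, -2.51 ± 0.23 and -3.59 ± 0.23, and Nnmt, which methylates nicotinamide, with -1.11 ± 0.22 and -1.28 ± 0.22 in the foci, against 0.03 ± 0.22 in AAF/PH liver.

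Of 23 short-chain dehydrogenases, 7 fell in rapamycin foci, 9 in placebo foci and 17 in AAF/PH liver, and 0, 1 and 2 rose (medians -0.66, -0.57 and -1.25). Rdh7, a retinol dehydrogenase, was called in all 3, with -1.31 ± 0.27 in rapamycin foci and -2.18 ± 0.27 in AAF/PH liver. In rapamycin foci the call of Rdh7 ended without normal liver animal 1 (-1.26, adjusted p = 0.0663), and in 3 of 24 settings in all. Hsd17b2, which inactivates sex steroids, rose in placebo foci by 1.80 ± 0.33 and fell by 2.28 in AAF/PH liver (standard error 0.33), with 0.68 ± 0.33 in rapamycin foci (limma adjusted p = 0.00365, 0.000256 and 0.204). Without rapamycin animal 3, Hsd17b2 in rapamycin foci was at 1.01 (adjusted p = 0.0456). The molybdenum enzymes and their cofactor genes showed 4, 3 and 6 lower and 0, 1 and 1 higher of 12 (medians -0.51, -0.60 and -1.04), among them Mtarc1, which reduces N-hydroxylated compounds, at -1.69 ± 0.34, -1.83 ± 0.34 and -2.55 ± 0.34. Of 15 SLC22 transporters, 3, 3 and 5 fell and 0 rose (medians 0.03, -0.12 and 0.04). In placebo foci Slc22a22, Slc22a24, Slc22a13, Slc22a2, Slc22a6, Slc22a21 and Slc22a3 had mean intensities of 5.39 to 18.6. The array medians there were 21.2 to 22.5. A fall could hardly show in genes this dim, which limits the SLC22 counts and medians.

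Among 23 genes of vasopressin and Gq signalling, 6 fell in rapamycin foci, 5 in placebo foci and 7 in AAF/PH liver, and 1 rose in each (medians -0.23, -0.20 and -0.11). The receptor genes Agtr1a, for angiotensin, and Adra1b, for adrenaline, were among those that fell, Agtr1a with -1.50 ± 0.27, -1.57 ± 0.27 and -1.83 ± 0.27. Itpr3, a calcium channel of the endoplasmic reticulum, rose by 0.64 ± 0.17, 0.87 ± 0.17 and 0.52 ± 0.17, though leaving out normal liver animal 1 gave 0.57 in rapamycin foci (adjusted p = 0.177) and 0.45 in AAF/PH liver (adjusted p = 0.167), and both calls were also lost without some of the other animals. The count higher in AAF/PH liver was 5 without rapamycin animal 3, and 2 without normal liver animal 2 or rapamycin animal 2. Of 12 genes of the muscle coupling apparatus in which Stac3 works, 0 were called in both kinds of foci and 2 rose in AAF/PH liver, Cacna2d1 and Acta1 (medians 0.32, 0.14 and 0.47). None of 7 other lysozyme family genes was called in any of the 3 comparisons (medians 0.35, 0.12 and 0.33). In placebo foci Lyzl1, Lalba, Lyg1, Lyzl6 and Spaca5 had mean intensities of 7.30 to 15.2, below the array medians of 21.2 to 22.5. Lyz2 and Spaca3 were above them, at 53.8 and 41.1. In the muscle list Cacna2d1, Jph1 and Trdn stood at 7.25 to 11.4 there, and Ckm and Jsrp1 at 55.5 and 42.6. A fall could hardly show in the dim genes, which limits the counts of 0. Between rapamycin and placebo foci 0 genes of these lists passed.

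Several of these counts rested on single normal livers, and so did the rapamycin foci calls of Mtarc1, Nnmt and Adra1b, each lost without normal liver animal 1 or 3. Without normal liver animal 1, the counts lower in rapamycin foci were 0 for the molybdenum enzymes, 1 for the methyltransferases, 1 for the short-chain dehydrogenases, 1 for SLC22 transporters and 1 for Gq signalling. Without normal liver animal 3 they were 1, 1, 2, 1 and 2. The methyltransferase count there was 3 without AAF/PH animal 1, placebo animal 1 or rapamycin animal 3, and 1 short-chain dehydrogenase in place of 2 was higher in AAF/PH liver without any 1 animal of the normal or AAF/PH groups, placebo animal 1 or placebo animal 2. In placebo foci, 4 short-chain dehydrogenases were lower without normal liver animal 1, normal liver animal 3 or placebo animal 1, and 3 Gq genes without normal liver animal 1, normal liver animal 3 or placebo animal 2. Without rapamycin animal 3, counts lower in placebo foci were 6 for the molybdenum enzymes, 5 for SLC22 transporters and 8 for Gq signalling. The 2 muscle coupling calls in AAF/PH liver became 0 without normal liver animal 1, normal liver animal 3 or AAF/PH animal 1, and 6 without rapamycin animal 3. Without that last animal, 3 lysozyme genes were higher in AAF/PH liver. The peroxisomal counts moved by at most 1.5 times, between 6 and 11, 8 and 12, and 12 and 14 in rapamycin foci, placebo foci and AAF/PH liver.

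**Figure D4:**
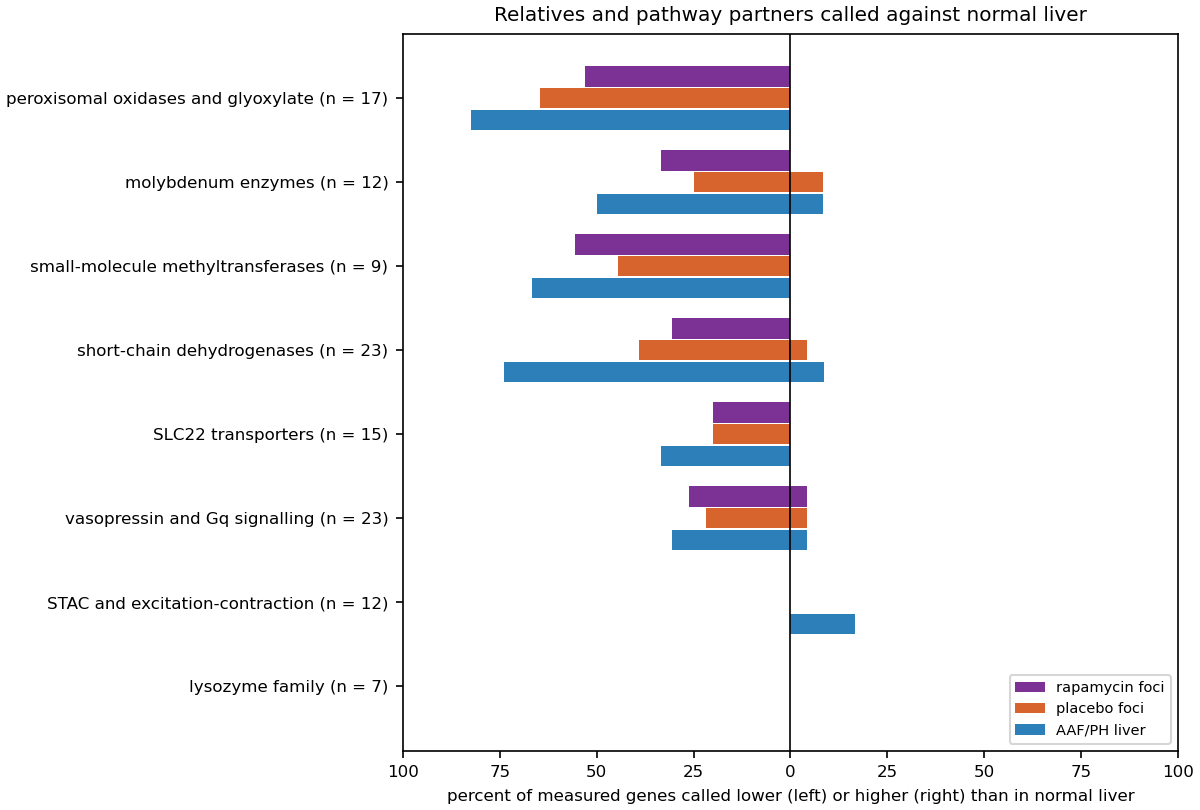
Percent of the measured genes of each list that were called lower (left) or higher (right) than in normal liver at an adjusted p under 0.05, by group. The peroxisomal list has calls on the lower side only, 9, 11 and 14 of 17 genes, while the lysozyme list has none. Several genes of the lysozyme, SLC22 and muscle coupling lists lay below the array medians, where a fall could hardly show.

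In genome order, the nearest measured genes on both sides of each of the 8, 32 in all, were called lower in 5, 5 and 10 cases in rapamycin foci, placebo foci and AAF/PH liver, beside 4.93%, 5.38% and 12.5% of all genes. They were called higher in 0, 2 and 1 cases, Aox1 and Rtn1 in placebo foci and Rtn1 in AAF/PH liver, beside 1.60%, 2.84% and 7.54% of all genes. Hsd3b5 near Hao2, Slc22a8 near Ust5r, Inhbc near Stac3, Ggct near Inmt and Yeats4 near Lyc2 were lower in all 3 comparisons. Hsd3b5, a steroid reductase of male rat liver, differed by -1.95, -2.77 and -3.84. The 4 measured neighbours of Avpr1a lay between -0.43 and 0.19 from normal liver and none was called.

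The profiles most like that of the 8 genes over the 12 animals were found among 278 other named genes with a standard deviation of at least 1 on the log2 scale, of which 43 had a Pearson correlation above 0.9 with the mean profile of the 8. Slc27a5, an enzyme that activates bile acids with coenzyme A, was the closest at 0.98, followed by Fabp7 at 0.98, Acnat2 and Nox4 at 0.97, and Slc43a1, Cyp3a9, Prodh, Slco1b2, Inhba and Lrtm2. Among the 28 pairs of the 8 genes the correlation ran from 0.88 to 0.99, Aox3 and Stac3 being the closest. All pairs share the same 12 arrays and the gap to normal liver. With each group's mean taken away, the correlations spread from -0.57 to 0.78, with a median of 0.12. Of these, 9 pairs were above 0.5, led by Ust5r with Avpr1a at 0.78 and Ust5r with Hao2 at 0.73. The share of all gene pairs above 0.5 was not calculated, so nothing particular to these genes is read from that count. Rapamycin animal 3, whose arrays had the narrowest signal, was the lowest of its group for Ust5r, Avpr1a and Hao2. The part of that signal range in the correlations was not tested. Each gene's closest partner by itself was Amacr for Dhrs7l1 (0.99), Cth for Lyc2 (0.97), Gk for Ust5r (0.98), Slc27a5 for Avpr1a (0.97) and Cyp3a9, after Aox3, for Inmt (0.98).

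Markers of the cell types that a captured region can hold also differed between the groups. The summed intensity of 15 hepatocyte markers was 31432 to 48171 in rapamycin foci, 34919 to 42599 in placebo foci and 28070 to 32613 in AAF/PH liver, against 52749 to 57942 in normal liver. Such sums are led by bright genes, as Alb at 6895 and Tf at 6828 in placebo foci. Of the hepatocyte markers, 3, 8 and 9 were called lower than in normal liver and 0 higher. Without normal liver animal 1 the lower counts in rapamycin and placebo foci were 0 and 4. The marker counts given here stand beside 4.93%, 5.38% and 12.5% of all genes called lower in rapamycin foci, placebo foci and AAF/PH liver. The shares of all genes called higher were 1.60%, 2.84% and 7.54%. The 12 biliary and oval cell markers summed to 347 to 567 in rapamycin foci, 557 to 809 in placebo foci and 927 to 1562 in AAF/PH liver, against 257 to 294 in normal liver, and 2, 4 and 10 of them were called higher. The count in rapamycin foci was 0 without normal liver animal 1 and 4 without rapamycin animal 3, and in placebo foci it was 2 without normal liver animal 3 or placebo animal 3. The 15 stellate cell markers had 943 to 1615, 1365 to 2095 and 3225 to 6934 in the same order, against 1213 to 1527 in normal liver, and 0, 1 and 10 of them were called higher. The 19 macrophage markers had 1114 to 2041, 1637 to 2566 and 2004 to 2423, against 1853 to 2286 in normal liver. Of these markers, 4, 2 and 2 were called lower and 0, 0 and 4 higher. The 4 higher in AAF/PH liver became 0 without normal liver animal 1 and 8 without rapamycin animal 3. Sums of the 9 endothelial markers were 428 to 727, 581 to 793 and 621 to 946, against 898 to 930, and of the 13 lymphocyte markers 363 to 465, 312 to 380 and 393 to 441, against 279 to 321. Of the endothelial markers 2, 1 and 1 were called lower and 0, 0 and 1 higher. Among the lymphocyte markers 0 were called lower and 1, 0 and 2 higher. Most of these small counts fell to 0 when single animals were left out. No detection call came with the values, so no marker is given as at 0, and the part of cell composition in the low values of the 8 genes was not tested.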

How the data were processed

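Laser-captured, formalin-fixed rat liver was measured on 1-colour arrays, and the authors deposited 1 table of 28826 probe sets in 14 columns, whose values are intensity on a linear scale. Per the submitters' processing notes, Partek 6.6 and RMA (background correction, normalization and probe summary) were named, with no role or order, and no genome build of the array is given in the sources used here. Per the labels, rapamycin animal 3 was run on 3 arrays, 2 from the same RNA and 1 from a new capture, and these were averaged on the log2 scale to 1 value. Log2 values had been assumed, so log2 of the deposited intensity was taken, with no pseudocount. Probe sets with 1 symbol in the platform annotation (15209, beside 306 with several and 13311 with none) gave 14497 genes, taking the probe set of highest mean for 494 genes. R 4.3.3 with limma 3.58.1 (lmFit, eBayes, 2-sided) fitted 4 group means over 12 animals (8 residual and 6.38 prior degrees of freedom), with Benjamini-Hochberg adjustment over all genes and calls at an adjusted p under 0.05. Alternatives were other normalizations, a filter on dim genes, array weights, a trend in the variance, only the 2 groups, all probe sets, the first array of animal 3, the replicate block and each animal left out. The calculations were tested on simulated data. Genes named were the 8, the 10 most alike and 2 closest to each, paralogs and neighbours, and up to 4 called genes per list of smallest p in placebo foci. The 8 genes and the lists were chosen with earlier results of these data known. Labels name separate animals as replicates, and their number limits the precision. Depth does not apply to arrays. Deviations of same-numbered animals from their group means correlated with both signs (18 correlations from -0.68 to 0.38), which does not settle pairing. The main fit used no block.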

Additional observations from a re-analysis of the deposited data

How the results depend on the processing

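Across 24 settings, 0 of the 8 genes were called between rapamycin and placebo foci, and 0 to 3 genes of all (1 with array weights, 2 without placebo animal 3 and 3 without rapamycin animal 3). Between placebo foci and AAF/PH liver the count was 0 when any 1 animal was left out and 1 with array weights (Avpr1a). Between rapamycin foci and AAF/PH liver it was 5 after quantile normalization, 1 with only the 2 groups fitted, 1 with values raised to the array's median (an alternative chosen after seeing the data), and 1 to 6 when any 1 animal was left out. The median of the 8 in placebo foci against normal liver was -3.38 after quantile normalization, -3.57 with values raised to the median, and -3.91 to -3.61 leaving 1 animal out. In rapamycin foci it was -2.77 after quantile normalization, -2.84 among the brighter genes, where Inmt drops out, -2.84 with array weights, and -3.32 to -2.81 leaving 1 animal out. In AAF/PH liver it was -3.61 after quantile normalization and -4.13 to -3.83 leaving 1 animal out. No other setting moved these 6 results past the threshold or beyond the spread. Hsd17b6, a dehydrogenase of the list, stood at 0.32 in placebo foci against AAF/PH liver, with the sign turned, when its probe sets were averaged. The values do not settle whether shared replicate numbers pair the animals. Of 18 correlations between same-numbered animals, 7 exceeded 0.1 and the lowest was -0.68. Between rapamycin and placebo foci they were -0.38, -0.49 and -0.68, and between AAF/PH and normal liver 0.02, 0.30 and 0.18. With the replicate block the counts of called genes among the 8 were unchanged, and 555 genes were called in rapamycin foci against normal liver, beside 947 without it. The numbers of all genes called moved by over 1.5 times in several settings, from 330 to 2011 in placebo foci against AAF/PH liver (608), from 204 to 2058 in rapamycin foci against AAF/PH liver (581), from 606 to 6443 in placebo foci against normal liver (1192), from 210 to 2051 in rapamycin foci against normal liver (947) and from 1552 to 8519 in AAF/PH liver against normal liver (2900). Centring each array on its median took the median of all genes in AAF/PH liver against normal liver to 0.00 from 0.12. Such centring removes a general shift by its construction, so nothing is read from that change. The cause of the shift of 0.12 was not tested. With no detection call, differences of genes near the arrays' median are limited by the floor, and array weights did not converge to their tolerance.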

Other observations

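The 10 genes of the most opposite profile to the 8 over the 12 animals were found after the values were seen, so their differences from normal liver are given with no test. Their Pearson correlation with the mean profile of the 8 ran from -0.90 for Cd24 to -0.81 for Cd44, and the animals share the gap to normal liver. RT1-Bb, RT1-Da and Cd74, which belong to antigen presentation by MHC class II, were 3 of the first 5. Cd74 differed from normal liver by 2.05 in rapamycin foci, 2.06 in placebo foci and 2.24 in AAF/PH liver on the log2 scale. RT1-Bb differed by 1.86, 1.94 and 2.35 in the same order. Cd24, a surface protein of progenitor cells, differed by 1.40, 2.39 and 2.54. The others were Enc1, Bex4, Anxa2, S100a10 and Krt19.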
